A study of Bos taurus with 12 samples.

Results

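The heat shock proteins of the cytosol and mitochondria were examined in mammary gland (MG) biopsies of early lactation Holstein cows, as the mRNA of 10 genes. These were HSPA1A, HSPA8, HSPH1, HSP90AA1, HSPB1, DNAJB1, HSPD1 and HSPE1, with the transcription factor gene HSF1 and the co-chaperone gene BAG3. Array probes were assigned to a gene when the RefSeq accession given with the probe belonged to that gene in the bovine RefSeq table. This assignment used no measured value, but the genes were chosen with earlier results of these data known. All 10 genes were found, with 30 probes, among 12639 genes named in this way. All cows were multiparous, were at 24 ± 3 days in milk and received 50 µg of LPS, the endotoxin of Gram-negative bacteria, into 1 rear gland. Control cows (CONT, n = 6) stayed on the lactation diet without limit, whereas restricted cows (REST, n = 6) were fed for 4 days a ration with 48% barley straw in the dry matter. LPS was given on day 3, and MG was biopsied 24 h later. No group without LPS was measured, so that the values compare diets during inflammation and do not give the response to LPS. Biopsies hold all cell types of the gland, and fewer cells of a type and less RNA per cell cannot be told apart in them.

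Heat shock proteins are molecular chaperones, which bind unfolded or partly folded proteins and help them to fold. HSP70 and HSP90 proteins work in ATP-driven cycles with J-domain proteins and co-chaperones, small heat shock proteins hold unfolded chains without ATP, and the HSP60 and HSP10 chaperonin folds proteins inside mitochondria. HSF1 drives the transcription of most of these genes when unfolded protein accumulates, as in heat or oxidative stress. A lactating gland makes large amounts of secreted protein, whose folding falls mainly to chaperones of another compartment, the endoplasmic reticulum.

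None of the 10 heat shock genes differed between REST and CONT cows beyond the spread between cows. Values are log2 signals minus the 75th percentile of their array, so that 0 stands for that percentile, and a gene is represented by its probe with the highest mean signal. On all 12 arrays the 30 probes were well above background, without saturation. None of the 30 probes had an unadjusted p under 0.05 in limma's moderated test, where 2.62% of all 43653 probes did (1.74% higher and 0.875% lower in REST), and the lowest p among the 30 was 0.18. In all 30 probes the values of both groups overlapped, and groups without overlap occurred in 0.128% of all probes (0.0733% higher and 0.055% lower in REST). Over all probes, limma with the Benjamini-Hochberg adjustment called 0 probes (0%), as did the Westfall-Young adjustment, while 1143 probes had an unadjusted p under 0.05. The adjusted p was 0.9999 for each of the 10 genes (limma, Benjamini-Hochberg). By sign alone, 4 of the 10 genes were higher and 6 lower in REST, with a median log2 difference of -0.07, beside -0.03 for all 12639 named genes, of which 43.5% were higher in REST. The 95% intervals of the fold change differed in width between the genes, from 0.705 to 1.099 for HSF1 to 0.855 to 2.11 for HSPA1A, and none of them went below 0.503 (HSPH1) or above 2.11.

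**Figure D1:**
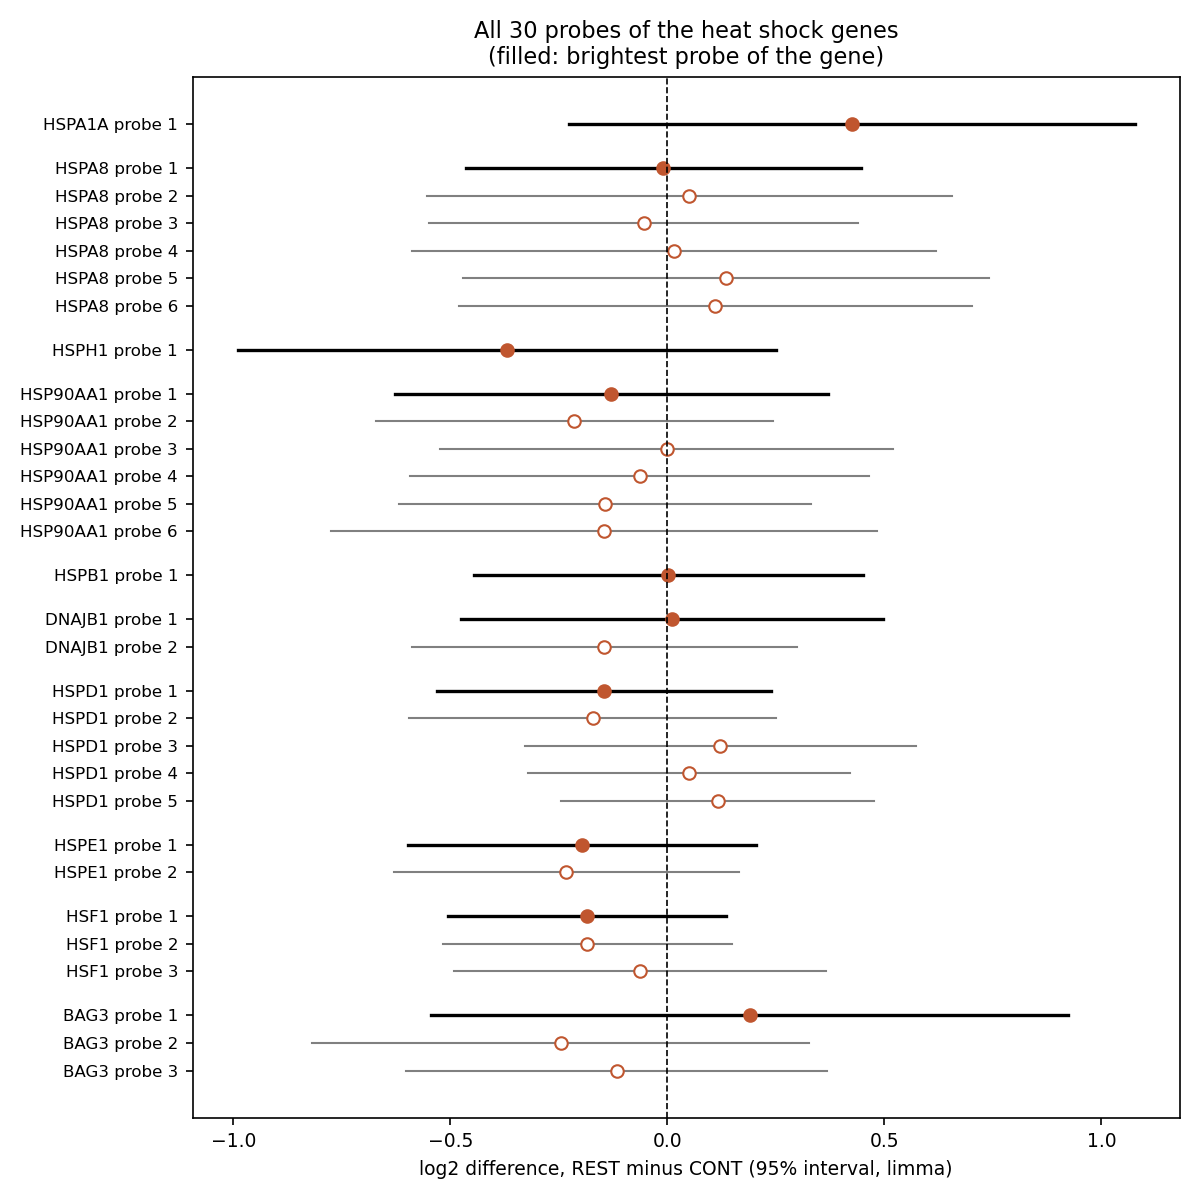
Log2 difference between REST and CONT (x axis, REST minus CONT) for each of the 30 probes of the heat shock genes (y axis), with 95% intervals from limma; filled points are the brightest probe of each gene. Every interval crosses 0, 11 probes lie above 0 and 19 below, and the probes of HSPA8, DNAJB1, HSPD1 and BAG3 fall on both sides of 0.

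HSPA1A (NM_203322), the stress-inducible HSP70, had the largest difference of the 10 genes in the main comparison. Its log2 signal was -0.86 at the lowest, -0.38 at the median and 0.92 at the highest in CONT cows, and -0.21, 0.32 and 0.70 in REST cows. The 4 lowest cows were all CONT, but the highest cow was CONT as well (cow 8027), and both groups overlapped over most of their range. CONT cows averaged -0.16 ± 0.67 (SD, n = 6), and REST cows averaged 0.26 ± 0.39 (SD, n = 6). The log2 difference was 0.43 (standard error 0.30) with an unadjusted p of 0.18 (limma), and the 95% interval of the fold change was 0.855 to 2.11. Slide and diet were not balanced, with 3 CONT and 1 REST arrays on slide 1, 1 CONT and 3 REST on slide 2, and 2 of each on slide 3. The difference was 0.62 on slide 1 and 0.85 on slide 2, where 1 cow stands for a group, and 0.0096 on slide 3. Leaving out single cows gave 0.28 to 0.64, and without CONT cow 8027 the difference of 0.64 had an unadjusted p of 0.025 (limma), with the groups still overlapping. In size, the difference of HSPH1 exceeded that of HSPA1A with median centring (-0.43 against 0.37). It did so too without some single cows, such as CONT cow 0015 (-0.52 against 0.38). The RefSeq table holds HSPA1B as a synonym of HSPA1A, and these near-identical inducible HSP70 genes cannot be told apart by this single probe.

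HSPA8 (NM_174345) encodes HSC70, the HSP70 that cells make without stress. The lowest, median and highest log2 signals were 4.36, 4.92 and 5.39 in CONT and 4.50, 4.80 and 5.39 in REST. Both groups covered the same range and had nearly the same highest value. The difference was -0.0096 (standard error 0.21, unadjusted p of 0.96, limma), and the fold change interval was 0.725 to 1.36. HSPH1 (NM_001075302) encodes HSP110, a nucleotide exchange factor that releases ADP from HSP70. CONT cows ranged from 0.89 to 2.50 (median 1.55), and REST cows from 0.85 to 1.95 (median 1.09). A total of 4 REST cows were below the CONT mean, and 2 REST cows were above it. The log2 difference was -0.37 (standard error 0.29, unadjusted p of 0.22, limma), with a fold change interval of 0.503 to 1.19. It was -0.20 without CONT cow 8027 and -0.21 with slide as a block. DNAJB1 (NM_001033763) encodes HSP40, the J-domain protein that delivers substrates to HSP70. CONT cows had -0.37 to 0.98 (median 0.44) and REST cows 0.18 to 0.82 (median 0.46), so that the REST values lay inside the CONT range. The difference was 0.010 (standard error 0.22), and the fold change interval was 0.719 to 1.41.

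HSP90AA1 (NM_001012670) encodes the inducible cytosolic HSP90, which completes the folding of kinases and steroid receptors. CONT cows had log2 signals of 4.49 to 5.53 (median 4.80) and REST cows of 4.10 to 5.28 (median 4.77). The lowest cow was REST cow 0049 and the highest CONT cow 8027, with the other cows mixed between them. The difference was -0.13 (standard error 0.23, unadjusted p of 0.58, limma). HSPB1 (NM_001025569), the small heat shock protein HSP27, averaged 5.85 ± 0.37 (SD, n = 6) in CONT cows, and REST cows averaged 5.85 ± 0.31 (SD, n = 6). With a log2 difference of 0.0018 (standard error 0.21), it was the gene whose group means lay closest, and its fold change interval was 0.734 to 1.37. With slide as a block the difference was 0.19, and within slide 3 it was 0.53. BAG3 (NM_001082471) encodes a co-chaperone that joins HSP70 to small heat shock proteins and directs clients to autophagy. On its brightest probe CONT cows ranged from 2.07 to 3.47 (median 2.87) and REST cows from 2.32 to 4.16 (median 2.86). The medians of both groups were nearly equal, and REST cow 0049 was the highest of all cows. The difference was 0.19 (standard error 0.34), with an interval of the fold change of 0.686 to 1.90.

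The mitochondrial chaperonin is encoded by HSPD1 (NM_001166609), the HSP60 barrel, and HSPE1 (NM_174346), its HSP10 lid, which neighbour each other in the bovine RefSeq table (ARS-UCD2.0). In other mammals the pair is known to be transcribed from a shared promoter in opposite directions. HSPD1 was at 3.04 to 3.80 (median 3.29) among CONT cows and at 2.91 to 3.54 (median 3.32) among REST cows. HSPE1 was at 4.08 to 4.62 (median 4.31) among CONT cows and at 3.59 to 4.47 (median 4.21) among REST cows. In both genes the 2 lowest cows were REST cows 0049 and 7043, and the 2 highest were CONT cows 1076 and 8027. The log2 difference was -0.15 (standard error 0.18, unadjusted p of 0.43, limma) for HSPD1 and -0.20 (standard error 0.18, unadjusted p of 0.31, limma) for HSPE1. The fold change intervals were 0.692 to 1.18 and 0.661 to 1.15. With slide as a block the differences were -0.052 and -0.097, and for HSPD1 the mean over its probes gave -0.0062. The smallest differences with 1 cow left out were -0.064 for HSPD1 (without CONT cow 1076) and -0.090 for HSPE1 (without REST cow 0049).

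HSF1 (NM_001076809), the transcription factor of the heat shock response, varied least between cows, with an SD of 0.21 over the 12 cows. CONT cows had signals of 1.20 to 1.63 (median 1.51) and REST cows of 1.00 to 1.66 (median 1.28). Of the 6 REST cows, 5 were below the CONT mean, but REST cow 0049 was the highest of all cows. The difference was -0.18 (standard error 0.15, unadjusted p of 0.23, limma), and the fold change interval was 0.705 to 1.099. HSF1 acts mainly through its protein, whose trimer formation and DNA binding an mRNA level does not measure.

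**Figure D2:**
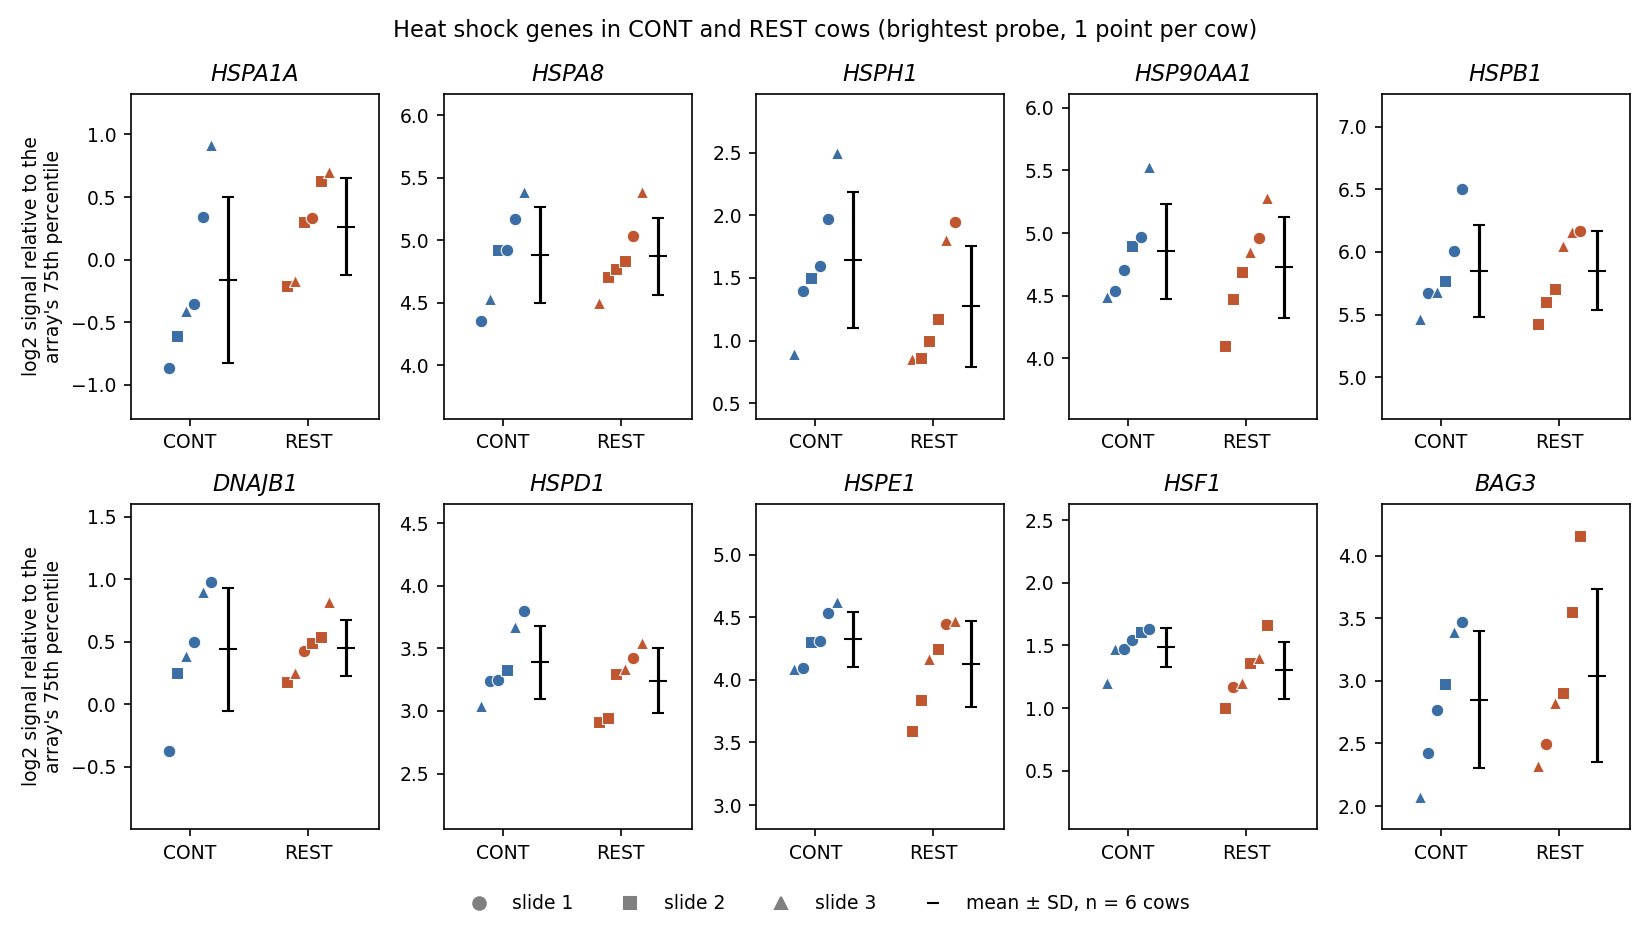
Log2 signal relative to the 75th percentile of the array (y axis, each panel spanning the same number of log2 units) for the brightest probe of each heat shock gene in CONT and REST cows (x axis); points are cows, their shape gives the slide, and bars give the mean ± SD (n = 6 cows). The groups overlap in all 10 panels, and HSPA1A, HSPH1 and BAG3 spread most.

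Cows differed within both groups. BAG3, HSPA1A and HSPH1 had SDs over the 12 cows of 0.60, 0.56 and 0.53, beside a median of 0.33 over the 9083 named genes well above background on all arrays, of which 82.3%, 79.2% and 76.3% had a smaller SD. HSF1 was at the other end, with 17.8% of genes below it. Between the lowest and the highest cow, BAG3 differed 4.24-fold and HSPA1A 3.44-fold, whereas HSF1 differed 1.58-fold. Some cows were high or low in many of the genes. CONT cow 8027 was among the 3 highest cows in 7 of the 10 genes and REST cow 1018 in 6. CONT cow 0015 was among the 3 lowest in 7 genes and REST cow 0049 in 6. High and low cows thus occurred in both groups. The array of cow 8027 was also the brightest of the 12, with a 75th percentile of 1184, and that of cow 0049 the dimmest, with 386.9. The brightness of the array moved with several of the genes, although each value is taken relative to it. Over the 12 cows, the log2 75th percentile had r = 0.85 with HSPE1, 0.79 with HSPD1, 0.75 with HSPH1, 0.72 with HSP90AA1 and -0.78 with the brightest BAG3 probe (permutation tests, adjusted p of 0.0064, 0.012, 0.015, 0.020 and 0.012 over 12 relations). Without REST cows 0049 and 1015, the farthest from its median, these r were 0.84, 0.82, 0.74, 0.46 and -0.51. By rank, rho was 0.76, 0.71, 0.62, 0.64 and -0.65, with adjusted p of 0.071 to 0.084. HSPA1A (r = -0.024), DNAJB1 (r = 0.18) and HSF1 (r = -0.16) had r near 0, and HSPA8 (r = 0.35) and HSPB1 (r = 0.45) did not pass either. REST arrays were dimmer at the median, with a 75th percentile of 652.6 against 837.4 in CONT, and the ranges overlapped. Among the genes that passed, HSPE1, HSPD1, HSPH1 and HSP90AA1 had lower means in REST, and the brightest BAG3 probe a higher one. The part of array brightness in these diet differences was not tested.

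Both HSP70 genes varied together over the cows by Pearson's r. HSPA8 correlated with HSPA1A (Pearson's r = 0.76, permutation p = 0.0042, adjusted p = 0.038 over 9 genes; Spearman's rho = 0.71, permutation p = 0.011, adjusted p = 0.10). Without the 2 cows farthest from the HSPA1A median (CONT cows 1024 and 8027) r was 0.57, and it was 0.77 after the slide means and 0.84 after the group means were subtracted. The adjusted p passed 0.05 with r and not with rho, and the call was lost in 10 of 18 other settings. As a background, 0.933% of 9000 named genes had a higher r with HSPA1A than HSPA8 had. DNAJB1, which works with both HSP70 proteins, followed with r = 0.68 (permutation p = 0.012, adjusted p = 0.054; rho = 0.58, permutation p = 0.053, adjusted p = 0.18), and without the same 2 cows r was 0.39. The other 7 genes had r between -0.52 (HSF1) and 0.43 (HSPH1) with HSPA1A, with adjusted p of 0.25 or higher. The genes most like HSPA1A over the 12 cows, among 8991 other genes, were RPA2 (r = 0.89), CDH1 (r = 0.88), MPPED2 (r = 0.88), PPP1R13L (r = 0.88) and DDX55 (r = 0.87). They encode a replication protein, E-cadherin, a phosphoesterase, a p53 inhibitor and an RNA helicase.

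All 45 pairs of the 10 genes were also correlated, which was decided after the first values were seen. In 29 pairs r was positive, the median r was 0.24, and 12 pairs had an adjusted p under 0.05 for r over the 45 pairs (permutation tests), 6 of them for rho as well. HSPA1A with DNAJB1 was among the 12, with an adjusted p of 0.048 for r, against 0.054 when adjusted over 9 genes (permutation tests). Of these 12 pairs, 9 had a positive and 3 a negative r, and the 3 negative ones all involved the brightest BAG3 probe, which its dimmer probes did not follow. Without CONT cow 8027, which was high in most genes, 2 pairs passed, and leaving out each other cow gave 5 to 15. All values of an array share its 75th percentile, and when this was regressed out of each gene, 6 pairs passed. The r of HSPH1 was then 0.24 with HSPD1 (0.69 before) and 0.24 with HSPE1 (0.72 before). That of HSP90AA1 with HSPE1 was 0.24 (0.69 before), whereas that of HSPA1A with HSPA8 was 0.82 (0.76 before).

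The closest pair was the chaperonin, HSPD1 and HSPE1 (r = 0.91, permutation p = 6e-05, adjusted p = 0.0014; rho = 0.92, permutation p = 6e-05, adjusted p = 0.0027). Without the 2 cows farthest from the HSPD1 median (CONT cow 1076 and REST cow 7043) r was 0.92, after the slide means were subtracted it was 0.87, and leaving out single cows gave 0.89 to 0.93. Both genes moved with the 75th percentile of the array, and r was 0.74 after this was regressed out. HSPE1 ranked 3 among 9000 genes by its r with HSPD1. HSPA8 was correlated with DNAJB1 (r = 0.81, permutation p = 0.0010, adjusted p = 0.015; rho = 0.70, permutation p = 0.014, adjusted p = 0.057), and r was 0.71 without CONT cow 1024 and REST cow 1018, the farthest from the HSPA8 median. HSPA8 was also correlated with its exchange factor HSPH1 (r = 0.79, permutation p = 0.0022, adjusted p = 0.020; rho = 0.80, permutation p = 0.0025, adjusted p = 0.037), with r = 0.93 without the same 2 cows. HSPH1 and HSP90AA1 gave r = 0.80 (permutation p = 0.0020, adjusted p = 0.020; rho = 0.76, permutation p = 0.0063, adjusted p = 0.048), 0.80 again without CONT cow 8027 and REST cow 1058, and 0.56 after the 75th percentile was regressed out. Many other genes were as close to HSP90AA1, since 7.06% of 9000 named genes had a higher r with it than HSPH1 had. For the 9 pairs with a positive r under the threshold, this share, taken from either gene of the pair, was 0.0111% (HSPD1 among the genes of HSPE1) to 14.2% (HSPE1 among those of HSP90AA1). HSPB1 (r between -0.51 and 0.45 with the other 9 genes) and HSF1 (r between -0.53 and 0.54) had no pair under an adjusted p of 0.05. The closest for HSPB1 by rank was HSP90AA1 (rho = 0.71, permutation p = 0.012, adjusted p = 0.057; r = 0.45, permutation p = 0.14, adjusted p = 0.25), with r = 0.73 without CONT cow 8027 and REST cow 0049.

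**Figure D3:**
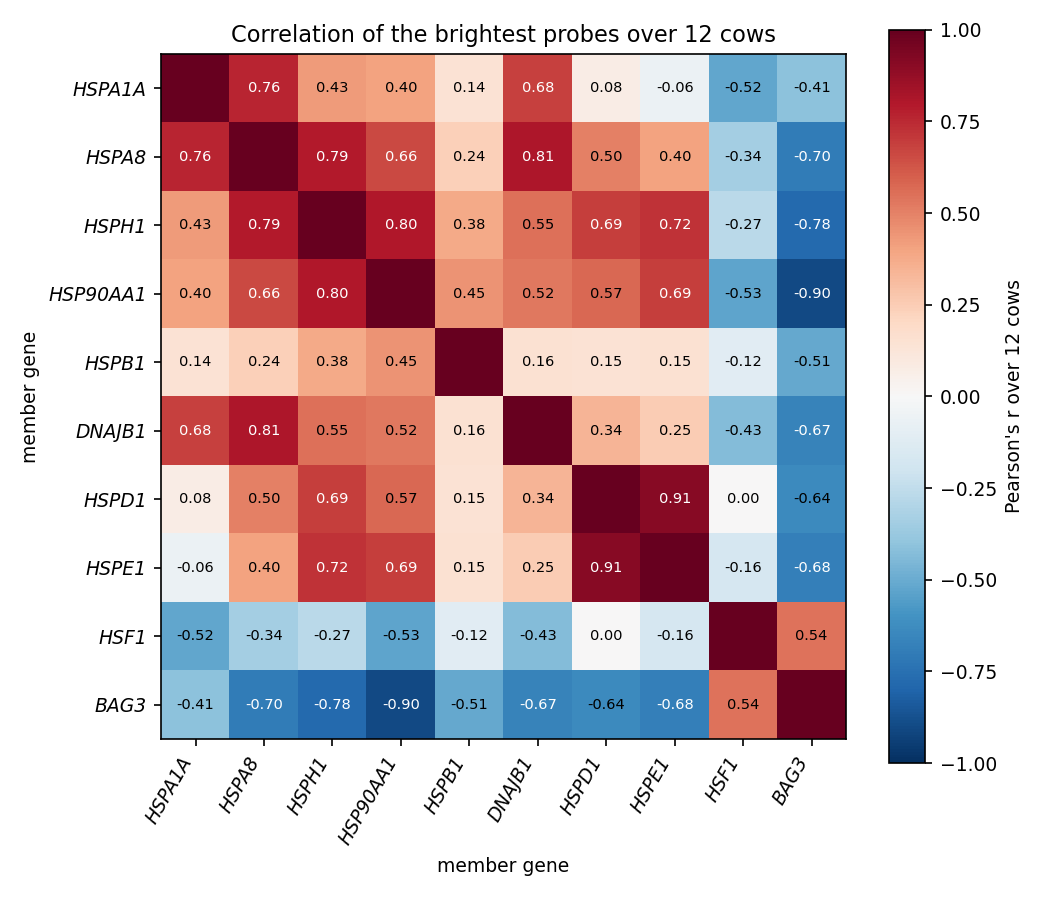
Pearson's r over the 12 cows between the brightest probes of each pair of heat shock genes (both axes; colour and number give r). HSPA8, HSPH1 and HSP90AA1 share positive values with most genes, HSPD1 and HSPE1 reach 0.91, and the brightest BAG3 probe is negative with each gene except HSF1.

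The relation of BAG3 to HSP90AA1 turned with the probe. Its brightest probe was inversely related to HSP90AA1 (r = -0.90, permutation p = 4e-05, adjusted p = 0.0014; rho = -0.87, permutation p = 0.00043, adjusted p = 0.0097), with r = -0.80 without CONT cow 8027 and REST cow 0049, the farthest from the HSP90AA1 median. Of 9000 named genes, 97.3% had a higher r with HSP90AA1 than this probe, and r was -0.79 after the 75th percentile was regressed out of both. The 2 dimmer BAG3 probes had r = 0.68 and r = 0.72 with HSP90AA1 (permutation p = 0.016 and 0.0086, adjusted p = 0.052 and 0.043 over 10 relations of single probes; rho = 0.65 and 0.72, adjusted p = 0.086 and 0.056). Without the 2 cows farthest from the median of each of these probes, REST cow 0049 and CONT cow 1076, these r were 0.36 and 0.49. With HSPH1 the 2 dimmer probes had r = 0.45 and 0.54, and the brightest -0.78. With HSPA8 the dimmer ones had 0.061 and 0.26, and the brightest -0.70. For the dimmer probes these r had an adjusted p of 0.17 or higher (permutation tests). The 2 dimmer probes were alike over the cows (r = 0.89), and the brightest ran against both (r = -0.57 and -0.59). REST cow 0049 had the highest value of all cows on the brightest probe (4.16) and the lowest on the second (0.71) and the dimmest (-2.84). The sign of the diet difference changed as well, from 0.19 on the brightest to -0.25 (standard error 0.26) and -0.12 (standard error 0.22) on the others. The direction of BAG3 therefore depended on the probe, and the transcript region each probe matches was not analysed here.

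HSPD1 also had probes that did not follow each other. Its 2 brightest probes were nearly identical over the cows (r = 0.99), and its 3 dimmer probes were alike among themselves (r = 0.73 to 0.79), but between the 2 sets r was 0.17 to 0.41. The second probe followed HSPE1 as the first did (r = 0.91, permutation p = 5e-05, adjusted p = 5e-04; rho = 0.95, permutation p = 3e-05, adjusted p = 3e-04), with r = 0.91 without CONT cow 1076 and REST cow 7043. The 3 dimmer probes had r = 0.26, 0.29 and -0.013 with HSPE1 (adjusted p of 0.52, 0.52 and 0.97), and 0.55, 0.68 and 0.31 after the slide means were subtracted. Their diet differences were 0.12 (standard error 0.21), 0.050 (standard error 0.17) and 0.12 (standard error 0.17), against the sign of the brightest. In HSF1 the 3 probes shared little of their variation (r = 0.020 to 0.37), although all 3 were lower in REST, by 0.18, 0.18 and 0.063 on the log2 scale. Probes of the other genes were closer to each other, with r of 0.79 to 0.97 for the 6 probes of HSPA8, 0.60 to 0.96 for the 6 of HSP90AA1, 0.95 for the 2 of HSPE1 and 0.71 for the 2 of DNAJB1. Of the 5 other HSPA8 probes, 4 had a small positive difference (0.050, 0.015, 0.14 and 0.11), and the second DNAJB1 probe had -0.15, each smaller than its standard error.

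**Figure D4:**
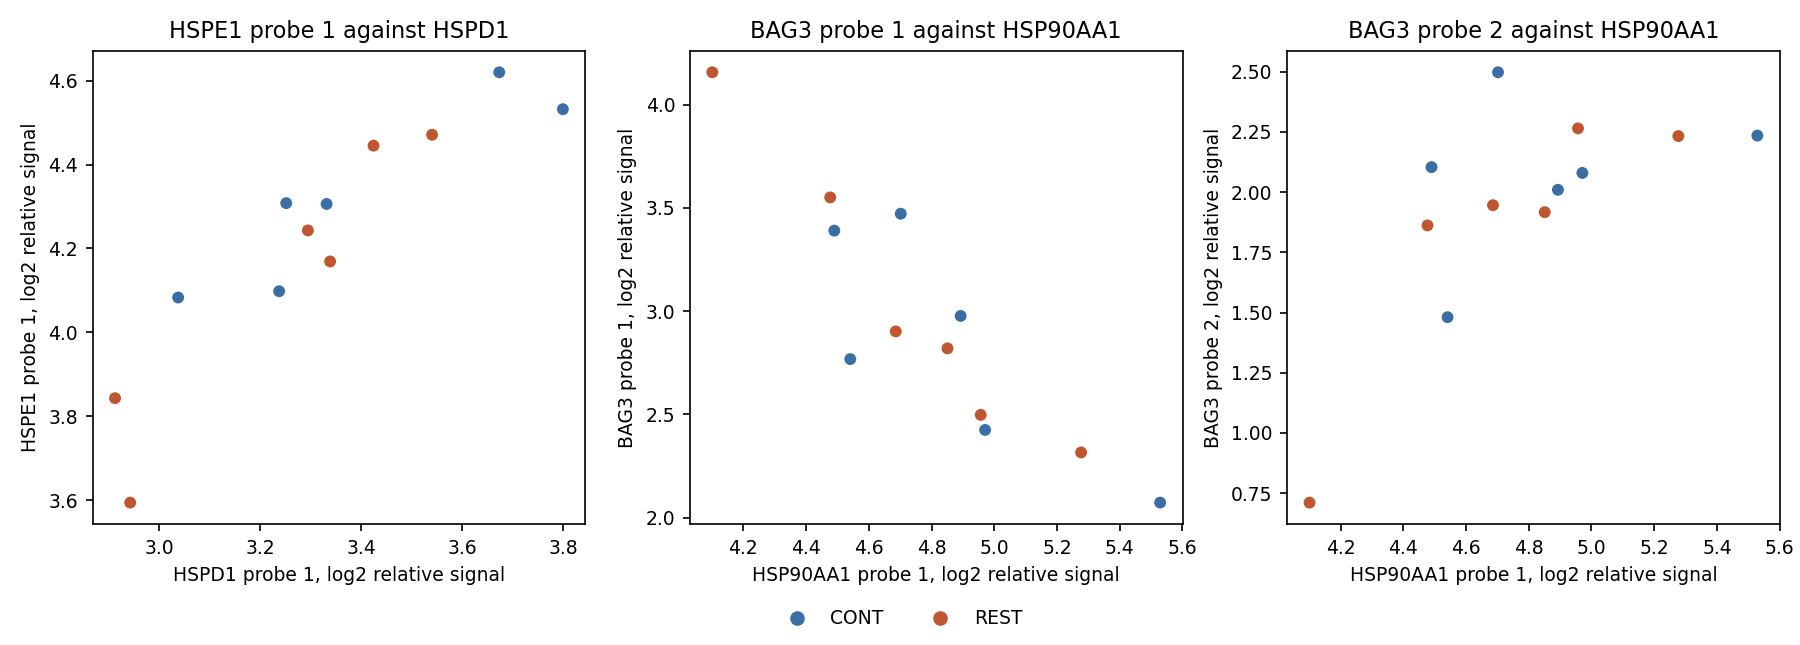
Log2 signals relative to the 75th percentile in each cow (points, coloured by group), for HSPE1 against HSPD1 (left), the brightest BAG3 probe against HSP90AA1 (middle) and the second BAG3 probe against HSP90AA1 (right). HSPE1 increases with HSPD1, the brightest BAG3 probe decreases with HSP90AA1 and the second one does not, with REST cow 0049 at an extreme in both BAG3 panels.

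Other chaperones and their partners were compared in the same way, each list being described by its counts. Of the 14 subunits of TRiC, the cytosolic chaperonin that folds actin and tubulin, and of prefoldin, which hands substrates to it, 13 were lower and 1 was higher in REST. The median log2 difference was -0.18, beside -0.03 for all named genes, of which 43.5% were higher in REST. The count lower was 12 or 13 of the 14 in each scaling and with each cow left out. These genes were measured in the same cows, so that their signs are not independent of each other. The list means of the cows overlapped, at 2.77 to 2.93 in CONT and 2.53 to 2.87 in REST. CCT2 and CCT4 had an unadjusted p under 0.05 (limma), where 2.64% of the 12639 genes did, and none passed the adjustment over all probes. CCT2 ranged from 2.59 to 3.02 (median 2.91) among CONT cows and from 2.23 to 2.79 (median 2.49) among REST cows, with all 6 REST cows below the CONT mean. Its difference was -0.37 (standard error 0.14, unadjusted p of 0.025, limma). CCT4 was at 3.86 to 4.68 (median 4.40) among CONT cows and 3.83 to 4.28 (median 3.94) among REST cows, with a difference of -0.36 (standard error 0.16, unadjusted p of 0.046, limma). PFDN5, a prefoldin subunit, was the only one with a higher mean in REST, by 0.38 (standard error 0.30).

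Among the partners of HSP70 and HSP90, 21 of 26 co-chaperone genes were lower in REST (median -0.15), and 17 to 23 were so in the other settings, with medians of -0.20 (median centring) to -0.070 (mean over all probes of a gene). Of all named genes, 43.5% were higher in REST. The list means of the cows overlapped, at 0.66 to 0.88 in CONT and 0.57 to 0.82 in REST. CDC37L1, a relative of the co-chaperone CDC37, had a difference of -0.33 (standard error 0.14, unadjusted p of 0.029, limma) with all 6 REST cows below the CONT mean. No other gene of the list had an unadjusted p under 0.05 (3.85% of the list, beside 2.64% of all named genes). The largest difference belonged to FKBP5, an HSP90 co-chaperone of steroid receptors that glucocorticoids induce. CONT cows had 1.80 to 2.76 (median 2.61) and REST cows 2.53 to 4.58 (median 2.77). All 6 REST cows were above the CONT mean, but the groups overlapped and the difference of 0.60 (standard error 0.34) had an unadjusted p of 0.10 (limma). J-domain genes other than DNAJB1 were mixed, with 10 higher and 16 lower (median -0.07), and 21 of the 26 were well above background on all arrays. With single cows left out, 14 to 19 were lower, and the median was -0.14 (without REST cow 0078) to -0.032 (without REST cow 1058). Only DNAJB5 among them had an unadjusted p under 0.05 (3.85% of the list, beside 2.64% of all named genes). Its p was 0.046 (limma), with a difference of -0.65 (standard error 0.29).

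The remaining relatives showed no member past an adjusted p. Of 7 other HSP70, HSP110 and HSP90 genes, 4 were higher and 3 lower (median 0.021), and HSPA1L, 1 of the 4, was well above background on none of the arrays. The count lower was 5 and the median -0.062 with normexp, and over the single cows left out 3 to 5 were lower, with medians of -0.13 (without CONT cow 8027) to 0.065. Within this list, HSPA4, a second HSP110 protein, was at -0.17 (standard error 0.16) and HSPA12B at 0.40 (standard error 0.36). All 7 other small heat shock genes had lower means in REST (median -0.21), but 3 of them were dim. HSPB3, the only one with an unadjusted p under 0.05, did not reach a signal well above background on any array, and HSPB9 and CRYAA did so on 3 and 4 arrays. When single cows were left out, 5 to 7 genes were lower, and the median was -0.52 (without CONT cow 8027) to -0.051 (without CONT cow 1076). CRYAB, αB-crystallin, had the largest difference among those measured on all arrays, -0.21 (standard error 0.35). The list of other heat shock factors held HSF2 (0.047) and HSF4 (0.071), both higher in REST, and the genes of their binding proteins HSF2BP and HSBP1. In this list 3 were higher and 1 lower, the latter being HSBP1, which binds HSF1 trimers, at -0.35 (standard error 0.18, unadjusted p of 0.072, limma). Without REST cow 0049, 3 of these 4 were lower, and over the single cows left out the median was -0.075 to 0.14. HSF2BP, well above background on 11 arrays, had the highest difference of this list, 0.38 (standard error 0.22). Of 16 other mitochondrial chaperones and proteases, 11 were lower and 5 higher (median -0.10). The other settings gave 10 to 14 lower and medians of -0.16 (median centring) to -0.062 (without REST cow 0049). The largest difference was that of the protease subunit AFG3L2, -0.21 (standard error 0.13). SPG7, which forms a protease with AFG3L2 and was picked out after its values were seen, was the only gene of these lists whose groups did not overlap, as in 0.128% of all probes. Its signals were 0.031 to 0.23 (median 0.18) among CONT cows and 0.24 to 0.51 (median 0.29) among REST cows. All 6 REST cows were thus above every CONT cow, by a difference of 0.19 (standard error 0.12, unadjusted p of 0.13, limma).

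**Figure D5:**
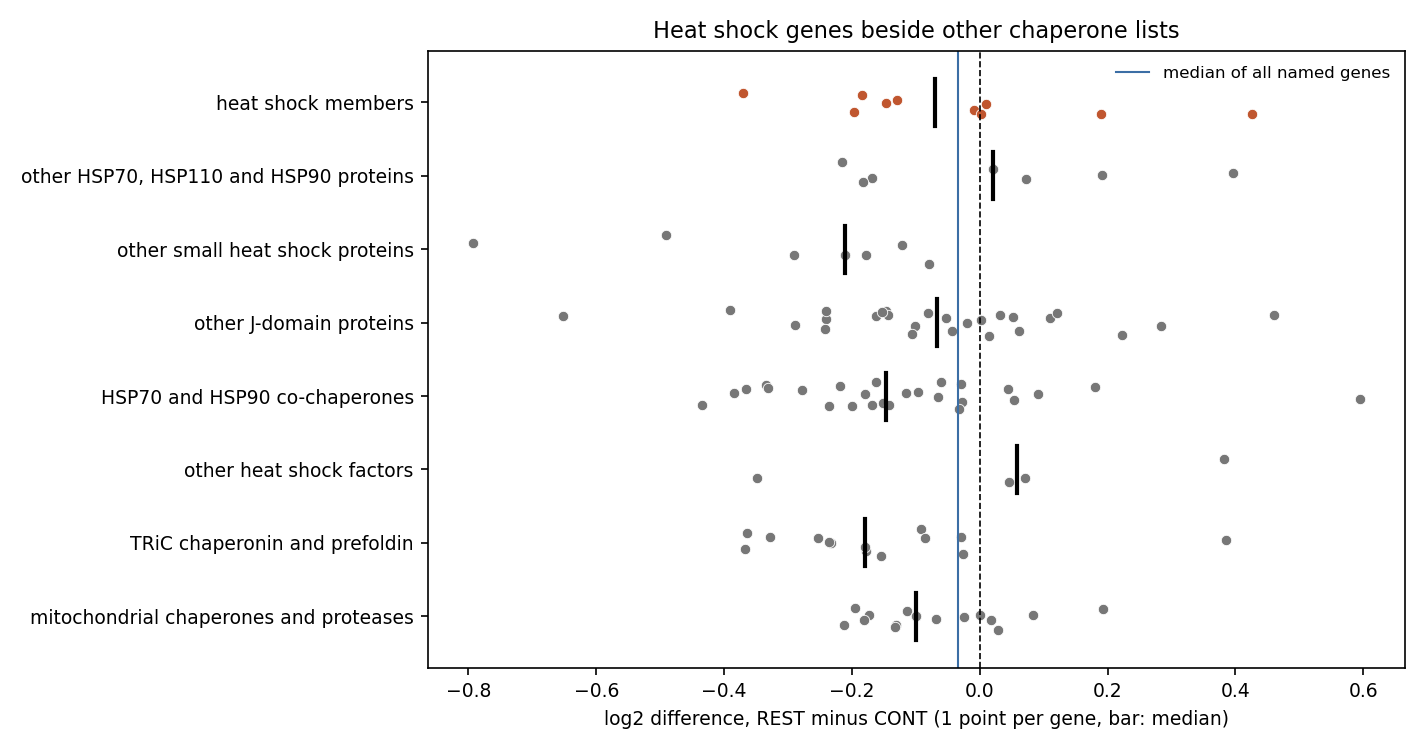
Log2 difference between REST and CONT (x axis) of each gene in the heat shock set and in 7 other chaperone lists (y axis; points are genes, black bars are list medians, and the blue line is the median of all named genes). The heat shock genes lie on both sides of 0, and 13 of the 14 TRiC and prefoldin subunits lie below it.

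The arrays differed in brightness, and genes of several cell types differed between cows. The 75th percentile of the intensities was 577.1 to 1184 in CONT and 386.9 to 1082 in REST, and correlations between arrays were 0.932 to 0.984. Slide 1, which held 3 CONT arrays and 1 REST array, had negative controls at 37.73 to 58.19, against 17.43 to 19.96 on the other slides. The 9 luminal epithelium genes that could be matched were well above background on all arrays, as in lactating mammary tissue, with a mean log2 signal of 5.37 to 6.04 in CONT and 5.52 to 6.23 in REST, and 7 of the 9 were higher in REST. Fibroblast genes were lower in REST in 6 of 7 cases (3 with an unadjusted p under 0.05, limma), where 2.64% of all named genes had such a p and 43.5% were higher, with a mean of 2.03 to 2.58 in CONT and 1.06 to 2.52 in REST. All 6 endothelial genes were higher in REST (1 with an unadjusted p under 0.05), at -1.91 to 0.085 in CONT and -0.42 to 0.52 in REST. Neutrophil and monocyte genes had 4 of 9 higher in REST and ranged from -0.75 to 0.63 in CONT and from -1.95 to 0.81 in REST, and 3 of these 9 were not well above background on every array. Adipocyte genes were higher in REST in 6 of 7 cases, although only 2 of the 7 were well above background on all arrays, with a mean of -2.58 to -1.41 in CONT and -1.88 to -1.34 in REST. Of 10 lymphocyte genes, 5 were higher, 2 of them with an unadjusted p under 0.05 (limma), of which MS4A1 was well above background on 4 arrays, and 5 of 6 myoepithelial genes and 5 of 6 smooth and skeletal muscle genes were lower. Over the 12 cows, HSPA8 varied with the mean of the 6 myoepithelial genes (r = 0.74, permutation p = 0.0062; rho = 0.72, permutation p = 0.011), but the adjusted p over 16 relations was 0.10 for r and 0.15 for rho. HSPA8 had r = -0.63 with the adipocyte genes (permutation p = 0.024, adjusted p = 0.19; rho = -0.61, permutation p = 0.040, adjusted p = 0.21) and r = 0.47 with the fibroblast genes (permutation p = 0.12, adjusted p = 0.38; rho = 0.68, permutation p = 0.019, adjusted p = 0.15). The other relations had an adjusted p for r of 0.38 or higher. The part of the cell makeup in the values of the heat shock genes was not tested.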

How the data were processed

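Total RNA (100 ng) from MG biopsies of 6 CONT and 6 REST cows, grouped by the diet label, was measured on one-color (Cy3) Agilent bovine arrays, 1 per cow. The authors extracted the spots with Feature Extraction (11.0.1.1). The deposited values are spot intensities after its background correction, not normalized between arrays. The array annotation columns (flags, control type, accession), deposited as other values, were used to filter and name probes.

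From 45220 spots per array, the 43803 non-control spots were kept, outlier spots were set to missing, and log2 intensity minus the array's 75th percentile was averaged per probe. Of 43653 probes, 26832 were named and 7047 were never well above background, and none was filtered out. REST was compared with CONT by limma 3.58.1 (R 4.3.3; lmFit, eBayes, two-sided), with Benjamini-Hochberg adjustment over all probes and Westfall-Young adjustment over 100 regroupings. The procedure was tested on simulated data. Correlations used two-sided permutation tests (100000 resamples). Besides the 10 genes, the text names their probes of opposite sign, list genes with an unadjusted p under 0.05 or the largest difference among those well above background on all arrays, HSPA4 and CCT4, and the 5 genes most like HSPA1A. SPG7, HSPB9, CRYAA, HSPA1L, HSF2, HSF4, HSF2BP and MS4A1 were named after their values were seen. The genes and lists were chosen with earlier results of these data known. Alternatives were quantile normalization, median centring, normexp (offset 50, on median spot signals), a filter on dim probes, slide as a block, within-slide values, the mean over probes and leaving out each cow. The pairwise and single-probe correlations, those with cell type markers and the 75th percentile, and the settings of the other lists were added after values were seen. The number of arrays limits the precision.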

Additional observations from a re-analysis of the deposited data

Results flagged for a closer look

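One value stood far from the rest of its group. On the second BAG3 probe, REST cow 0049 had a log2 signal of 0.71, while the other 5 REST cows were at 1.86 to 2.27, and the gap was 0.741 of the range of the group. It was the only such value among 60 groups (30 probes in CONT and REST), where chance alone would give about 3, at 1 in 20. The same cow was at 4.16 on the brightest BAG3 probe, the highest of all cows.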

How the results depend on the processing

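No heat shock gene passed an adjusted p in any setting with a test (values within a slide had none), and 0 probes of the array were called in each. HSPA1A without CONT cow 8027 alone had an unadjusted p under 0.05 (0.025). The count at an unadjusted p under 0.05 was 377 with normexp, and 825 to 1739 with single cows left out (1739 without REST cow 1058). Groups without overlap were 56 probes in the main comparison and 25 with normexp. With single cows left out they were 71 to 235, but leaving out a cow cannot make separate groups overlap. Heat shock genes higher in REST were 2 with median centring, 7 within slide 1 and 2 to 5 with single cows left out. Their median difference was -0.16 to -0.013 with single cows left out, 0.12 within slide 1, -0.22 within slide 2 and -0.022 within slide 3. Single differences changed sign in these settings. HSPA8 gave 0.014 with slide as a block, 0.041 as the mean over probes and 0.22 within slide 1. On slide 1, HSPH1 gave 0.29, HSP90AA1 0.22, HSPE1 0.13 and BAG3 -0.39. On slide 3, HSP90AA1 gave 0.054, DNAJB1 -0.11, HSPD1 0.085 and BAG3 -0.16. HSPB1 gave -0.042 with quantile normalization, -0.055 with median centring and -0.19 within slide 2, but 0.19 with slide as a block and 0.53 within slide 3. DNAJB1 gave -0.046 with median centring and -0.067 as the mean over probes, and BAG3 -0.015 with slide as a block and -0.058 as the mean over probes. With single cows left out, ranges were -0.12 to 0.092 for HSPA8, -0.52 to -0.20 for HSPH1, -0.24 to 0.0052 for HSP90AA1, -0.22 to -0.064 for HSPD1, -0.27 to -0.090 for HSPE1, -0.26 to -0.13 for HSF1, -0.075 to 0.13 for HSPB1, -0.15 to 0.12 for DNAJB1 and -0.033 to 0.33 for BAG3. HSP90AA1 was -0.054 with slide as a block, and HSF1 -0.12 with normexp. Of 9 genes, the number correlated with HSPA1A was 0 with median centring and without the 2 farthest cows, 2 with normexp and with group means subtracted, and 0 to 5 with single cows left out (5 without REST cow 0049). The r of HSPD1 with HSPA1A was -0.21 without the 2 farthest cows and -0.15 to 0.25 with single cows left out, and that of HSPE1 was 0.22 with quantile normalization, 0.011 with normexp, 0.088 with group means subtracted and -0.33 to 0.22 with single cows left out. Pairs correlated over the cows were 21 with quantile normalization, 6 with the 75th percentile regressed out and 2 to 15 with single cows left out. The cause of these changes was not tested. No paired analysis was possible because the cows of both groups share no pairing label.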
